A study of Mus musculus with 16 samples.

Results

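Organoid lines grown from peritoneal metastases were compared with organoid lines grown from the primary pancreatic tumors of the same animals. The members were the 3 metastasis lines labelled peritoneum, M3P of mouse 2, M6 of mouse 3 and M10 of mouse 4, and the 3 primary tumor lines of those mice, T6, T19 and T23. They were chosen by the site and mouse labels, with no measured value in the rule, and made up 6 of the 16 lines of the series. The other lines, 6 metastasis lines from liver, diaphragm, lung and ovary and 4 primary lines, came from 3 other mice and entered a single comparison at the end.

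All lines came from tumors of KPC mice, a model of pancreatic ductal adenocarcinoma driven by mutations that include one of Trp53, on the C57BL6/J strain per the labels. The sources used here do not give ages, passages, the promoter that drives Cre or the exact alleles of each line. Each line was grown in Matrigel, a gel of basement membrane proteins, in 1 common medium with EGF, FGF-10, Noggin, R-spondin, gastrin and the TGF-beta receptor inhibitor A83-01. Both groups therefore shared these agents, and the cells were measured away from the peritoneum and the pancreas. In the paired comparison each line stood for 1 lesion of 1 mouse, so n = 3 mice. Its p-values measured the spread between 3 pairs of lines.

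Peritoneal metastases arise when tumor cells leave the pancreas and settle on the mesothelium, the cell layer that lines the abdominal cavity. Pancreatic ductal tumors keep parts of the duct cell program, and many also switch on genes of stomach and intestine, which marks the classical subtype. The tumor suppressor p53 switches on genes for cell cycle arrest, death and repair, and imprinted genes are read from only the maternal or only the paternal copy.

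Total RNA without ribosomal RNA was sequenced, and the deposited gene tables hold expected counts, RSEM's estimates of the reads of each gene. Totals were 39241689 to 41544728 in the metastasis lines and 25737458 to 45363863 in the primary lines, lowest in the primary line of mouse 2. Levels are given as CPM, counts scaled to a common library size by TMM. In bulk RNA such as this, fewer cells of a type and less RNA per cell cannot be told apart. Transcripts of 3 genes that collect ribosomal RNA reads held 14 to 18.5% of counts in the metastasis lines. They held 29.9% in the primary line of mouse 2, and 0.0595% and 0.588% in those of mice 3 and 4. Genes of the mitochondrial chromosome held 11 to 14.5% of counts in metastasis lines and 16.9 to 20.7% in primary lines. A fit without the 3 genes, added after the data were seen, called 291 genes, against 296 with them; the part of the mitochondrial share was not tested.

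All 6 lines carried epithelial markers, and none of the 5 tested was called. Epcam, an epithelial adhesion protein, was at 487, 493 and 201 CPM in the metastasis lines of mice 2, 3 and 4, against 310, 344 and 295 CPM in the primary lines. Values in the text keep this order of mice. Of 8 mesothelial markers 4 passed the count filter and 0 were called. Msln, mesothelin, which pancreatic tumor cells also make, was at 347, 379 and 314 CPM in metastasis lines and 531, 161 and 372 CPM in primary lines. The mesothelial markers Bnc1, Gpm6a and Wt1 reached at most 0.320 CPM in any line. Upk1b held 149 counts in metastasis lines and 11 in primary lines, a ratio of 14.4 (interval for counting error 7.81 to 29.4). Upk3b lay the other way, with 17 counts in metastasis lines and 41 in primary lines. The mesothelial list summed to 315 to 385 CPM in metastasis lines and 162 to 533 CPM in primary lines, nearly all of it Msln. The fibroblast list summed to at most 0.826 CPM in metastasis lines and 0.231 CPM in primary lines.

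The first question was which genes differed within mice between peritoneal metastasis and primary lines. Of 15392 genes tested by edgeR with mouse as a block, 296 passed an adjusted p of 0.05, which is 1.92%. Of these, 151 (0.981% of genes tested) were higher and 145 (0.942%) lower in metastasis lines. Each of the 296 had the same sign in all 3 mice and changed over 2-fold, with a median absolute log2 fold change of 3.68. For 293 of them the groups did not overlap. Among all genes tested the metastasis lines lay fully above the primary lines for 17.7% and fully below for 17.6%. The test itself favors genes with large and even differences, so these traits of the 296 are no separate support.

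These calls were close to the threshold and rested on all 3 mice. The lowest adjusted p was 0.00991. Without mouse 2 no gene passed (lowest adjusted p = 0.123). In that fit 2586 genes had an unadjusted p under 0.05, among them all 296. The 296 had been called with the same lines of mice 3 and 4, so this is no separate support for them. Without mouse 3, 142 genes passed, 99 of them among the 296, and without mouse 4, 97 passed, 47 of them among the 296. With no mouse block 1333 genes passed, 727 higher and 606 lower, which is 8.66% of genes tested (4.72% higher and 3.94% lower), and 283 of the 296 were among them. DESeq2 with the block called 2324.

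**Figure D1:**
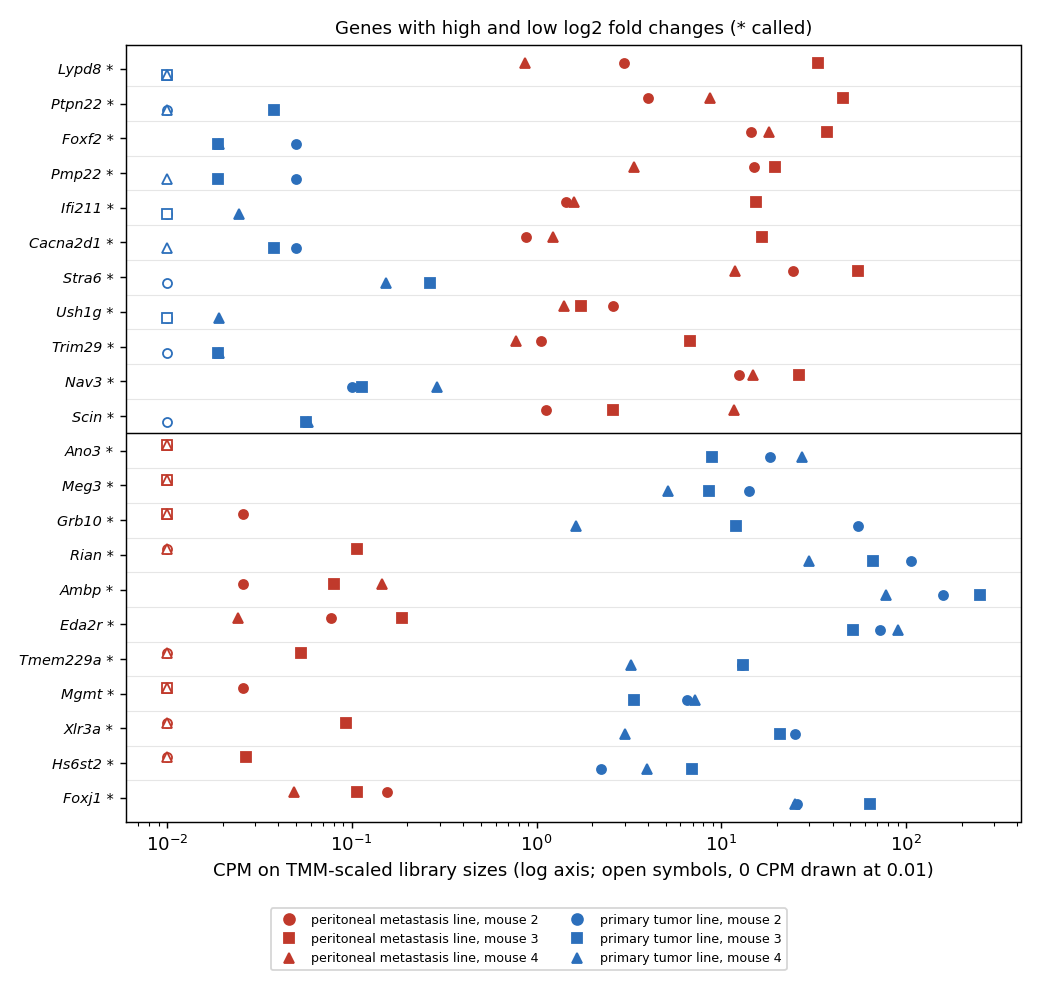
Level of 11 of the 12 genes with the highest (upper part) and 11 of the 12 with the lowest log2 fold change, in CPM on a log axis, for the 3 peritoneal metastasis lines (red) and the 3 primary lines (blue), with 1 symbol shape per mouse. In the upper part all red symbols lie right of the blue ones, with Lypd8 at 0 in all 3 primary lines, and in the lower part Ano3 and Meg3 are at 0 in all 3 metastasis lines.

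Genes that rose most were nearly silent in the primary lines. Foxf2, a forkhead transcription factor best known from the connective tissue of the gut, was at 14.4, 37.4 and 18.1 CPM in metastasis lines, against 0.0499, 0.0189 and 0.0192 CPM in primary lines. The 3 metastasis lines lay within 3-fold of each other, and the primary lines together held 3 counts of Foxf2. The ratio was 960.0 (95% counting interval 328 to 4660, adjusted p = 0.0114).

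Ptpn22, a phosphatase that restrains lymphocyte receptors, was at 4.02, 45.5 and 8.73 CPM in metastasis lines and 0, 0.0378 and 0 CPM in primary lines. It was highest in the line of mouse 3, and the ratio over the group was 1182 (95% counting interval 327 to 9769, adjusted p = 0.0114). Lypd8, an anti-bacterial surface protein of colon cells, was at 2.97, 33.4 and 0.871 CPM and had no count in any primary line. It was at least 497-fold higher taking 3 counts in the whole group as the floor (adjusted p = 0.0444), and it did not pass with no mouse block (adjusted p = 0.0608). Pmp22, a membrane protein of myelin that epithelia also make, was at 15.1, 19.5 and 3.39 CPM, against 0.0499, 0.0189 and 0 CPM.

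The other genes of this group were the DNA sensor family gene Ifi211, the calcium channel subunit gene Cacna2d1, the retinol transporter gene Stra6, and Ush1g, Trim29, Nav3 and Scin. Nav3, a guidance protein of neurons, was at 12.5, 26.3 and 14.8 CPM in metastasis lines and 0.0998, 0.113 and 0.288 CPM in primary lines, a log2 fold change of 6.71 (adjusted p = 0.0237, SE 0.56). Ifi211, Cacna2d1 and Trim29 were 4-fold or more higher in the line of mouse 3 than in the other metastasis lines. Among abundant genes, Soat1, which stores cholesterol as esters, was at 226, 171 and 295 CPM in metastasis lines and 40.5, 29.6 and 51.5 CPM in primary lines. Its groups were far apart, with a log2 fold change of 2.51 (adjusted p = 0.0114, SE 0.14).

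Genes that fell most were active in every primary line and close to silent in the metastasis lines. Ano3, a membrane protein of the anoctamin family, was at 0 CPM in all 3 metastasis lines and at 18.3, 8.92 and 27.3 CPM in primary lines, at least 709-fold lower taking 3 counts in the whole group as the floor (adjusted p = 0.0391). Grb10, an imprinted adaptor that dampens insulin receptor signalling, was at 0.0258, 0 and 0 CPM, against 54.9, 12 and 1.63 CPM. The metastasis lines held 1 count of it, and the primary lines differed among themselves over 30-fold. Ambp, the precursor of a plasma lipocalin and a protease inhibitor, was at 0.0258, 0.0799 and 0.145 CPM in metastasis lines and 159, 251 and 78.3 CPM in primary lines. It fell by 10.74 on the log2 scale (adjusted p = 0.0114, SE 0.60).

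Mgmt, which repairs alkylated guanine in DNA, was at 0.0258, 0 and 0 CPM in metastasis lines and 6.49, 3.38 and 7.19 CPM in primary lines. The metastasis lines held 1 count in all, against 683 in the primary lines, a ratio of 643 (95% counting interval 115 to 25431, adjusted p = 0.0289). Foxj1, the master factor of motile cilia, was at 0.155, 0.107 and 0.0484 CPM, against 25.7, 63.8 and 25.0 CPM, and fell by 8.42 on the log2 scale (adjusted p = 0.0114, SE 0.47). The other genes of this group were Meg3, Rian, Eda2r, Tmem229a, Hs6st2 and Xlr3a. The value of Xlr3a is uncertain, since the X chromosome holds near-identical copies of it.

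Among abundant genes that fell, Gas6, a ligand of the AXL family of receptors, was at 1.52, 1.86 and 2.64 CPM in metastasis lines and 182, 227 and 142 CPM in primary lines. It fell by 6.51 on the log2 scale (adjusted p = 0.0114, SE 0.35). Crip2, a LIM domain protein, was at 5.47, 14 and 5.85 CPM, against 106, 141 and 121 CPM, and fell by 3.99 (adjusted p = 0.0181, SE 0.28). Ano1, a calcium-activated chloride channel, was at 57.1, 62.9 and 49.9 CPM, against 294, 249 and 264 CPM, and fell by 2.25 (adjusted p = 0.0185, SE 0.17). St3gal4, a sialyltransferase, fell by 2.42 (adjusted p = 0.0185, SE 0.18). For these 4 genes the lines of each group were close together, and no metastasis line came within 3-fold of a primary line.

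The p53 targets were the list with the lowest median. All 27 members were tested, and 9 of them fell, none rose by edgeR and 18 missed the threshold, beside 0.942% of all genes called lower. The median log2 fold change was -1.52, against 0.01 over all genes tested, and 24 of 27 values were negative. In 21 members the metastasis lines lay below all primary lines, beside 17.6% of all genes. By mouse, the median difference was -1.90, -1.14 and -1.35 on the log2 scale, so it was negative without mouse 2 as well. This list was chosen with earlier results of these data known.

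Of the 19 list members with a RefSeq promoter window, 2 held a match to the p53 consensus with at most 1 mismatch. They are shown because they were the only members with such a match. Ccng1 is the called target with the highest level in the primary lines, and Cdkn1a is the best known member. In both the metastasis lines lay below all primary lines. The window runs from 250 bases before to 50 after the annotated gene start, on GRCm38.p6. Capitals mark the 20-base match to the p53 consensus. Ccng1 lies at chr11:40755237-40755536 on the minus strand, with the match starting 195 bases before the gene start, and Cdkn1a at chr17:29090729-29091028 on the plus strand, with the match starting 51 bases before it.
Ccng1: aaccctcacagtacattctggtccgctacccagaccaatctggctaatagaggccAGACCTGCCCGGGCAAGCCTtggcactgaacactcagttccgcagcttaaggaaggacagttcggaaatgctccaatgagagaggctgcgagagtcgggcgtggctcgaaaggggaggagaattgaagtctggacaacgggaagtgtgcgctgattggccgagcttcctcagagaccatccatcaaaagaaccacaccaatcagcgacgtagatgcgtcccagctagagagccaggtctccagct
Cdkn1a: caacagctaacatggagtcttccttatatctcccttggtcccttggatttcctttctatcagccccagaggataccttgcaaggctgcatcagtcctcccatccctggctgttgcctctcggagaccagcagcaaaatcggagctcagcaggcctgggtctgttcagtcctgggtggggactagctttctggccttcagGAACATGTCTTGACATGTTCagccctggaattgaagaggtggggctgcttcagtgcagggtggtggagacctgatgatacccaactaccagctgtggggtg
Windows with at most 1 mismatch made up 0.067% of all 32851 promoter windows, 22 in number, searched on the strand of the gene, where the consensus reads the same on both strands. A match of letters is a description and shows no binding, and the other 17 members with a window had no such match in it.

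Feedback and arrest genes of p53 were among the called members. Ccng1, a cyclin induced by p53, was at 61.5, 81.0 and 106 CPM in metastasis lines and 958, 610 and 903 CPM in primary lines. It fell by 3.32 on the log2 scale (adjusted p = 0.0226, SE 0.27), with over 5-fold between the nearest lines of the groups. Mdm2, the ubiquitin ligase that degrades p53, was at 29.7, 39.6 and 33.9 CPM, against 128, 95.6 and 134 CPM, and fell by 1.79 (adjusted p = 0.0429, SE 0.22). Cdkn1a, the gene of the arrest protein p21, was at 1.77, 4.66 and 9.99 CPM, against 32.2, 20.3 and 37.5 CPM. Its groups did not overlap, but with a log2 fold change of -2.69 (SE 0.53) it did not pass (adjusted p = 0.0759).

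Genes that p53 uses for cell death and stress responses followed. Trp53inp1, a p53 cofactor, was at 7.53, 6.42 and 7.79 CPM in metastasis lines and 197, 105 and 165 CPM in primary lines, and fell by 4.38 on the log2 scale (adjusted p = 0.0114, SE 0.21). Eda2r, a death receptor of the TNF receptor family, was at 0.0774, 0.186 and 0.0242 CPM, against 71.9, 51.9 and 90.7 CPM, and fell by 9.50 (adjusted p = 0.0153, SE 0.61). Bax, which opens the outer mitochondrial membrane, was at 34.1, 42.7 and 56.3 CPM, against 122, 114 and 148 CPM, and fell by 1.55 (adjusted p = 0.0392, SE 0.17). Phlda3, Zmat3, Plk2 and Psrc1 fell by 2.74, 1.86, 1.79 and 2.34. Members that were not called included Pmaip1, Rrm2b, Tigar and Tnfrsf10b, with log2 fold changes of 0.47, 0.00, 0.15 and 0.04.

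Trp53 itself was at 63.9, 62.1 and 65.3 CPM in metastasis lines and 52.2, 70.7 and 61.2 CPM in primary lines, with overlapping groups and a log2 fold change of 0.07 (adjusted p = 0.843, SE 0.16). The count does not tell mutant from normal transcripts. Cdkn2a, Cdkn2b, Smad4 and Myc, which pancreatic tumors often alter, were not called. With no mouse block the p53 list had 13 members lower, beside 3.94% of all genes, and 0 higher.

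**Figure D2:**
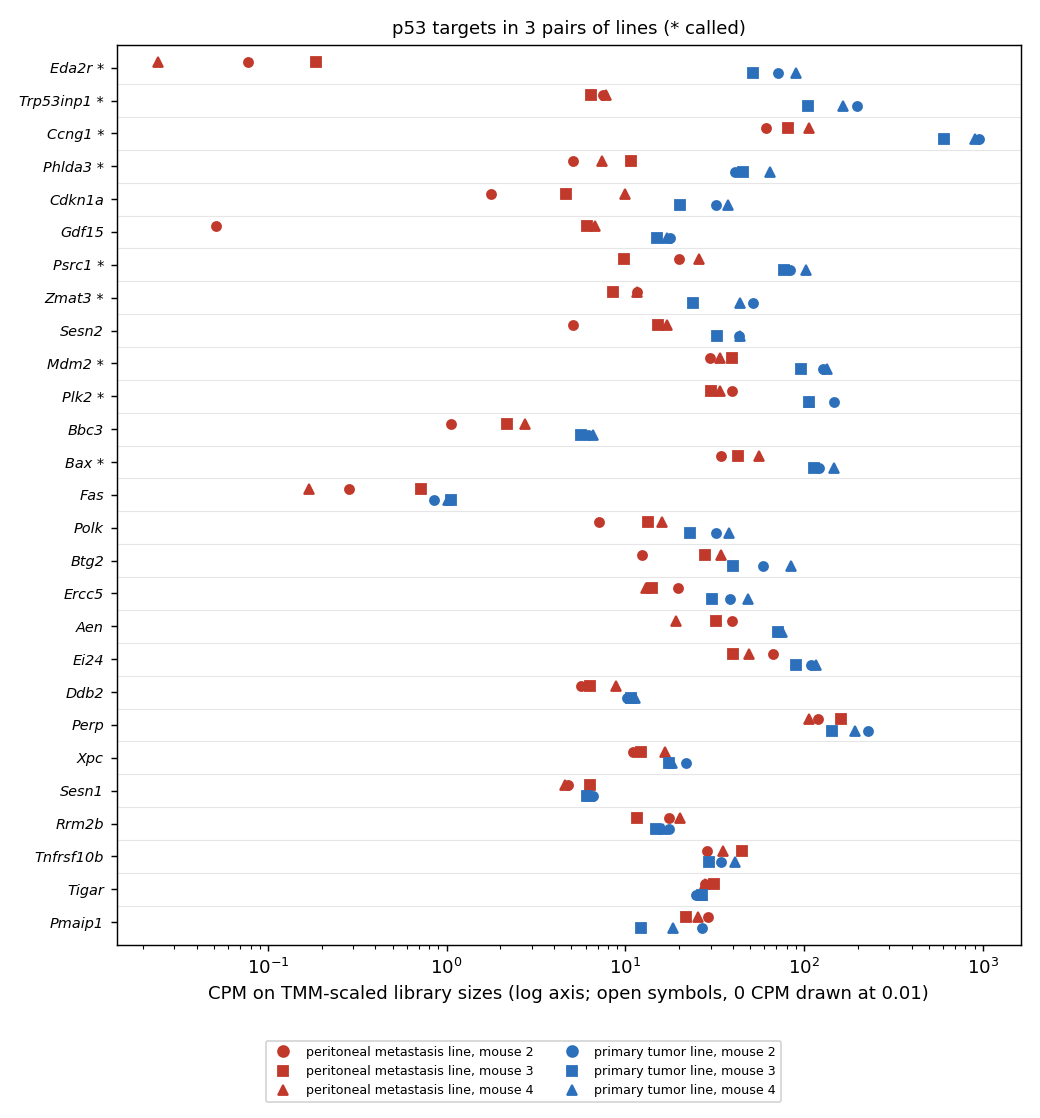
Level of the 27 p53 targets in CPM on a log axis for the 3 peritoneal metastasis lines (red) and the 3 primary lines (blue), sorted by log2 fold change with the lowest on top, with stars on the 9 called members. In 21 members all red symbols lie left of the blue ones.

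Imprinted genes had a median log2 fold change of -1.14. Of 15 tested members 3 were called lower and 0 higher, beside 0.942% and 0.981% of all genes. Of the 3, Meg3 and Rian lie in the imprinted cluster between Dlk1 and Dio3 on chromosome 12, and Grb10 on chromosome 11. Meg3, a noncoding RNA made from the maternal copy (chr12:109541001-109571726, plus strand), was at 0 CPM in all 3 metastasis lines and at 14.2, 8.63 and 5.13 CPM in primary lines. It was at least 317-fold lower taking 3 counts in the whole group as the floor (adjusted p = 0.0441). Rian, a noncoding RNA that carries small nucleolar RNAs (chr12:109603940-109661716, plus strand), was at 0, 0.107 and 0 CPM, against 107, 66.1 and 29.8 CPM. It fell by 10.80 on the log2 scale (adjusted p = 0.0170, SE 0.74).

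The next genes along the cluster, looked up after these values were seen, had the same order of groups. Rtl1, a protein gene on the minus strand between Meg3 and Rian, was at 0.0258, 0 and 0 CPM in metastasis lines and 3.99, 2.87 and 1.11 CPM in primary lines, and was called lower (adjusted p = 0.0327). Mirg, which holds many microRNAs, was at 0 CPM in the metastasis lines and 4.39, 3.67 and 1.56 CPM in the primary lines (adjusted p = 0.0524, not called). Dio3os was at 0 CPM, against 2.05, 1.70 and 0.711 CPM (adjusted p = 0.0628, not called). Dio3, beside it, and Dlk1, at the other end, had too few counts to be tested. Whether the counting used strand is not given in the sources used here, so reads of Rtl1 and Dio3os may include overlapping transcripts of the other strand.

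Imprinted genes elsewhere varied. Igf2r was at 186, 117 and 140 CPM in metastasis lines and 167, 113 and 138 CPM in primary lines. Peg3, a paternally expressed zinc finger gene, was at 6.63, 5.59 and 0.484 CPM, against 44.8, 270 and 265 CPM, without passing (adjusted p = 0.107). Mest had a log2 fold change of 1.57 (adjusted p = 0.0960, SE 0.36).

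Genes of the pancreatic duct moved apart. Among 14 members 4 fell and 1 rose, beside 0.942% of all genes called lower and 0.981% higher. The list median was -0.88 on the log2 scale. Besides Ambp, Aqp1, a water channel, was at 7.07, 2.58 and 14.1 CPM in metastasis lines and 131, 248 and 329 CPM in primary lines, and fell by 5.06 on the log2 scale (adjusted p = 0.0405, SE 0.57). Bicc1, an RNA-binding protein of tubular epithelia, was at 52.2, 17.4 and 43.8 CPM, against 275, 314 and 301 CPM, and fell by 3.10 (adjusted p = 0.0444, SE 0.40). Clu, the secreted chaperone clusterin, was at 400.0, 317 and 453 CPM, against 1387, 1996 and 1436 CPM, and fell by 2.04 (adjusted p = 0.0443, SE 0.26).

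Cftr went the other way. This chloride channel of ductal epithelium was at 127, 56.6 and 81.8 CPM in metastasis lines and 2.74, 2.00 and 6.44 CPM in primary lines, a log2 fold change of 4.65 (adjusted p = 0.0289, SE 0.43). Its groups were over 8-fold apart at their nearest lines. The duct keratin genes Krt19 and Krt7 had log2 fold changes of 0.76 and 1.09 and were not called.

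Transcription factors of foregut and endoderm also split, with 3 of 21 tested members higher and 3 lower, beside 0.981% and 0.942% of all genes. Hhex, a homeobox factor of foregut and pancreas development, was at 6.11, 5.70 and 2.66 CPM in metastasis lines and 92.5, 75.4 and 56.6 CPM in primary lines, and fell by 4.01 on the log2 scale (adjusted p = 0.0114, SE 0.22). Onecut1, a factor of duct and liver development, was at 0, 0.0799 and 0.0726 CPM, against 17.9, 23.9 and 9.02 CPM, and fell by 8.25 (adjusted p = 0.0307, SE 0.78). Nr5a2, a nuclear receptor of pancreas and gut, was at 1.42, 0.400 and 0.0242 CPM, against 27.2, 31.2 and 11.3 CPM (adjusted p = 0.0475).

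The 3 that rose were Foxa1, Gata5 and Elf3. Foxa1, a pioneer factor of endoderm, was at 6.32, 6.82 and 10.1 CPM in metastasis lines and 0.249, 0.0756 and 0.403 CPM in primary lines, a log2 fold change of 5.18 (adjusted p = 0.0391, SE 0.56). Gata5 was at 17.7, 21.4 and 29.6 CPM, against 1.90, 3.19 and 7.57 CPM, and Elf3, an epithelial ETS factor, at 148, 220 and 213 CPM, against 61.5, 74.9 and 97.4 CPM. Factors of the same families did not pass. Gata6 was at 14, 0.666 and 11.2 CPM, against 30.5, 30.4 and 25.1 CPM (adjusted p = 0.254), and Foxa2 had a log2 fold change of -1.08 (adjusted p = 0.160). Pdx1, a pancreas master factor, was at 28.1, 41.7 and 18.2 CPM, against 19.7, 22.6 and 25.9 CPM.

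**Figure D3:**
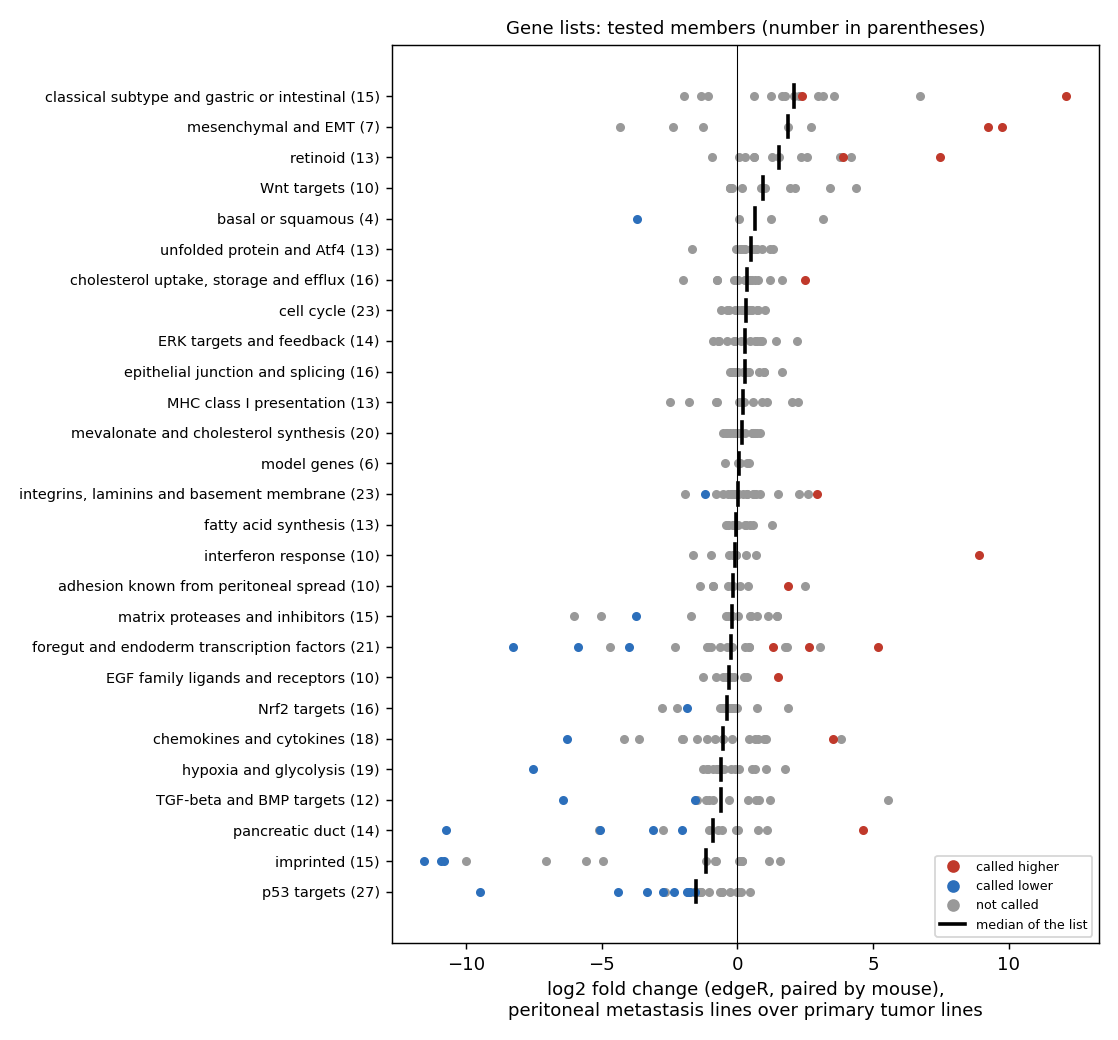
Log2 fold change of each tested member of the 27 gene lists, metastasis lines over primary lines, with the list median as a black bar and called members in red (higher) or blue (lower). The p53 list has the lowest median, -1.52, and the list of classical, gastric and intestinal genes the highest, 2.10. Fitted values of genes with a group at 0 counts depend on the prior count.

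Classical subtype, gastric and intestinal genes had the highest list median, 2.10, but 2 of 15 tested members were called, both higher. Over all genes tested 0.981% were called higher. Slc40a1, the iron exporter ferroportin, was at 82.6, 95.4 and 62.3 CPM in metastasis lines and 21.3, 13.3 and 11.9 CPM in primary lines, a log2 fold change of 2.40 (adjusted p = 0.0307, SE 0.23). The second was Lypd8. Other members were high in different metastasis lines. Cldn18, a claudin of stomach and lung, was at 327, 0.586 and 1.45 CPM, against 0.649, 0.454 and 0.557 CPM, and stood out in the line of mouse 2. Tff1, a gastric trefoil peptide, was at 62.3, 0.559 and 322 CPM, against 4.79, 3.96 and 6.66 CPM, high in the lines of mice 2 and 4. Anxa10, a gastric annexin, was at 11.2, 5.57 and 142 CPM, against 2.39, 1.3 and 1.04 CPM.

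The intestinal genes had another order. Muc13, a mucin of the intestinal surface, was at 5.08, 46.7 and 0.314 CPM in metastasis lines and 0, 0.0567 and 0.0961 CPM in primary lines, highest in the line of mouse 3. Isx, an intestinal homeobox factor that failed the count filter, was at 27.1, 77.4 and 0.169 CPM, against 0.0499, 0.0189 and 0.154 CPM. Gkn1, a protein of gastric surface cells that also failed it, was at 2.71, 0.240 and 14.4 CPM, against 0, 0 and 0.0192 CPM. Lgals4, a lectin of the gut, was at 449, 822 and 453 CPM, against 91.5, 63.4 and 260 CPM, and with a log2 fold change of 2.27 (SE 0.60) did not pass (adjusted p = 0.119).

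**Figure D4:**
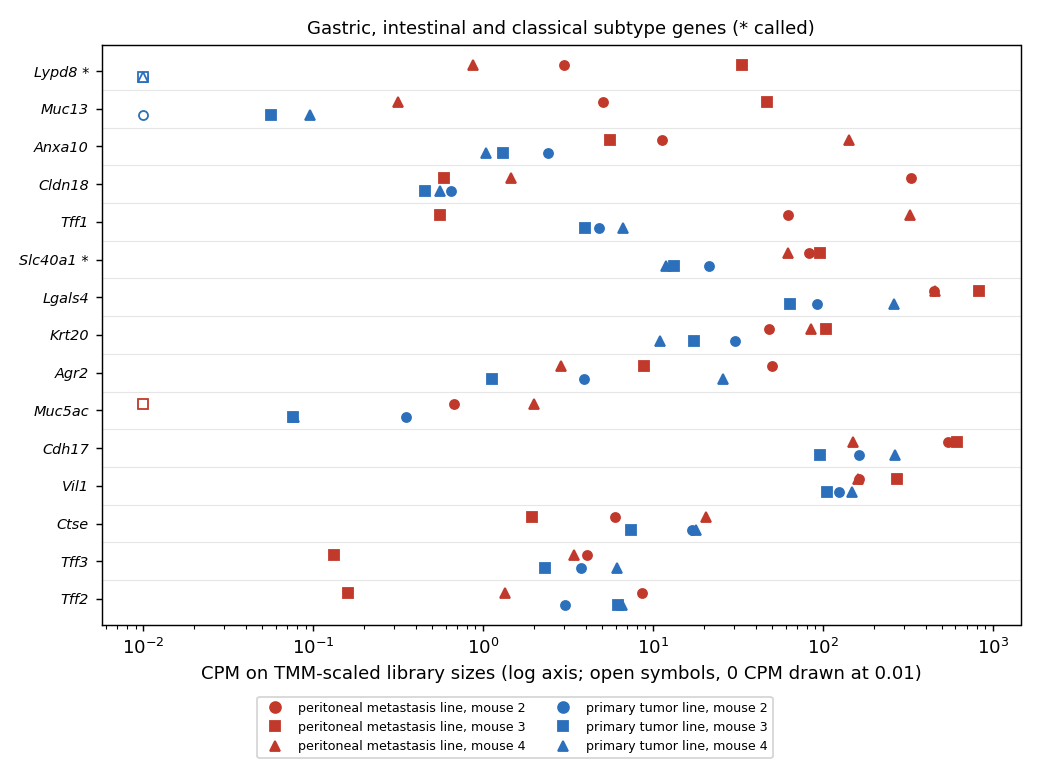
Level of the 15 tested gastric, intestinal and classical subtype genes in CPM on a log axis for the 3 peritoneal metastasis lines (red) and the 3 primary lines (blue), with stars on the 2 called genes. The red symbols of Cldn18, Tff1, Muc13 and Anxa10 are spread widely, and the line that is highest differs from gene to gene.

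The spread among lines was larger among metastases. Of 8704 genes with a mean of at least 10 CPM, 342 (3.93%) ranged over 4-fold among the 3 metastasis lines and 91 (1.05%) among the 3 primary lines, after 0.1 CPM was added. The SD over genes of the log2 difference was 1.00 to 1.18 between metastasis lines and 0.632 to 0.689 between primary lines. Between a metastasis line and the primary line of its own mouse it was 1.32, 1.46 and 1.27 in mice 2, 3 and 4. By this SD all 3 metastasis lines were nearest to the same primary line, that of mouse 4, at 1.16, 1.27 and 1.27. The match in mouse 4 was thus not particular to that pair. By the median absolute log2 difference the metastasis line of mouse 2 was nearest to the primary line of mouse 3, at 0.469, against 0.478 for that of mouse 4.

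Among 10 tested adhesion genes known from peritoneal spread 1 rose and none fell by edgeR, beside 1.92% of all genes called, and the list median was -0.17 on the log2 scale. L1cam, a neural adhesion molecule made by many invasive tumors, was at 15.9, 10.0 and 29.9 CPM in metastasis lines and 4.09, 3.54 and 6.90 CPM in primary lines, a log2 fold change of 1.86 (adjusted p = 0.0444, SE 0.25). Muc16, the CA125 mucin that binds mesothelin, was at or near 0 in all 6 lines. Cd44, a hyaluronan receptor, was at 84.9, 89.5 and 97.1 CPM, against 187, 133 and 189 CPM, and had a log2 fold change of -0.89 (adjusted p = 0.0728, SE 0.17).

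Of 23 tested genes of integrins, laminins and basement membrane, 1 rose and 1 fell, beside 0.981% and 0.942% of all genes. The list median was 0.01 on the log2 scale. Lama3, a chain of epithelial laminin, was at 6.11, 7.11 and 6.31 CPM in metastasis lines and 1.10, 0.737 and 0.725 CPM in primary lines, a log2 fold change of 2.95 (adjusted p = 0.0439, SE 0.37). Agrn, the proteoglycan agrin, was at 109, 106 and 108 CPM, against 265, 245 and 234 CPM, and fell by 1.20 (adjusted p = 0.0416, SE 0.14). Lamb1 was at 168, 13.7 and 144 CPM, against 12.3, 12.1 and 12.2 CPM, high in 2 of the 3 metastasis lines. Of 15 tested matrix proteases and inhibitors, 1 fell, the protease nexin gene Serpine2, beside 0.942% of all genes called lower. Timp3, an inhibitor of matrix proteases, was at 34.9, 16.7 and 0.666 CPM, against 715, 548 and 838 CPM, without passing (adjusted p = 0.0933), and passed without mouse 4 (adjusted p = 0.0245).

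Of 16 epithelial junction and splicing genes 0 were called by edgeR. Of 7 tested mesenchymal genes, in a list of 15, 2 rose, beside 0.981% of all genes called higher. They were Foxf2 and Pmp22, which were put in the list with earlier results known, while the intermediate filament gene Vim was at 0.645, 0.293 and 3.12 CPM in metastasis lines and 0.200, 0.473 and 0.115 CPM in primary lines. Snai1, Snai2, Zeb1 and Zeb2, which are among the factors that drive the mesenchymal switch, reached at most 0.346 CPM in any line. Of other such factors, Twist1 held 103 counts in metastasis lines and 17 in primary lines. Its ratio was 6.44 (interval for counting error 3.83 to 11.5). Twist2 held 32 counts in metastasis lines and 0 in primary lines. S100a4 was at 12.8, 30.2 and 30.1 CPM, against 1.60, 2.50 and 10.4 CPM (adjusted p = 0.0630).

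Growth factor signalling genes held few calls. Over all genes tested 0.981% were called higher and 0.942% lower, and 4.72% were called higher with no mouse block. Btc, the EGF receptor ligand betacellulin, was at 55.7, 43.1 and 50.9 CPM in metastasis lines and 20.4, 11.8 and 22.3 CPM in primary lines, a log2 fold change of 1.5 (adjusted p = 0.0444, SE 0.20), the 1 call among 10 tested EGF family genes. Of 12 TGF-beta and BMP targets 2 fell. Id2, a BMP-induced inhibitor of helix-loop-helix factors, was at 87.9, 89.6 and 97.1 CPM, against 272, 233 and 305 CPM, and fell by 1.55 (adjusted p = 0.0308, SE 0.15). Inhbb, the activin beta B chain, held 1 count in metastasis lines and 129 in primary lines. Of 14 ERK targets and 10 Wnt targets 0 were called by edgeR, and 4 and 2 were higher with no mouse block. The Wnt list had a median log2 fold change of 0.94. Of 23 cell cycle genes 0 were called, with 2 higher with no mouse block, and a median of 0.33.

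Of 19 hypoxia and glycolysis genes 1 fell, beside 0.942% of all genes called lower. This was Car9, carbonic anhydrase 9, a cell surface enzyme induced by hypoxia. It was at 0.227, 1.16 and 0.314 CPM in metastasis lines and 102, 86.5 and 88.9 CPM in primary lines, and fell by 7.54 on the log2 scale (adjusted p = 0.0225, SE 0.61). The other 18 were not called. The list median was -0.59 on the log2 scale, and 14 of 19 values were negative. By mouse, the median difference was -1.08, -0.13 and -0.33. In 6 members the metastasis lines lay below all primary lines, beside 17.6% of all genes, and in 1 above them. Pfkfb3 had a log2 fold change of -1.11 (adjusted p = 0.0857), whereas Vegfa and Ldha had 0.05 and -0.07. Of 16 genes of cholesterol uptake, storage and efflux 1 rose, Soat1, beside 0.981% of all genes called higher. By edgeR 0 of 20 genes of mevalonate and cholesterol synthesis and 0 of 13 genes of fatty acid synthesis passed. Sqle, squalene epoxidase, was at 343, 288 and 296 CPM, against 182, 172 and 170 CPM, with a log2 fold change of 0.82 (adjusted p = 0.0622, SE 0.14), and was called with no mouse block (adjusted p = 0.0171).

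Of 13 tested retinoid genes 2 rose and none fell by edgeR, beside 0.981% of all genes called higher. Of the 13, 12 had a positive sign, and the list median was 1.55 on the log2 scale. Stra6, the retinol transporter, was at 24.3, 55.3 and 11.9 CPM in metastasis lines and 0, 0.265 and 0.154 CPM in primary lines, a log2 fold change of 7.48 (adjusted p = 0.0307, SE 0.71). Rdh10, which oxidises retinol, was at 383, 126 and 147 CPM, against 12.8, 11.4 and 14.7 CPM, a log2 fold change of 3.88 (adjusted p = 0.0327, SE 0.39). In 7 members the metastasis lines lay above all primary lines, beside 17.7% of all genes, and with no mouse block 7 were called higher, beside 4.72% of all genes. The retinoic acid target gene Rarb was not called, and Cyp26a1, the enzyme that degrades retinoic acid, had too few counts to be tested.

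Immune signalling genes split as well. Il33, an alarm cytokine of epithelia, was at 134, 135 and 578 CPM in metastasis lines and 20.5, 15 and 21.7 CPM in primary lines, a log2 fold change of 3.53 (adjusted p = 0.0444, SE 0.46). Ccl2, a chemokine that draws monocytes, was at 0.0258, 0.0533 and 0.0484 CPM, against 2.44, 7.52 and 1.96 CPM, and fell by 6.26 (adjusted p = 0.0307, SE 0.59). These were the 2 calls among 18 tested chemokines and cytokines. Over all genes tested 0.981% were called higher and 0.942% lower. Of 10 tested interferon genes 1 rose, Ifi211, and of 13 MHC class I genes 0 were called by edgeR. Of 16 Nrf2 targets 1 fell, the glutathione transferase gene Gsta3, and of 13 unfolded protein and Atf4 genes 0 were called. In the basal list of 4 tested genes 1 fell, Ly6d.

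Chromosomes differed in their median. Over all genes tested the median log2 difference was 0.03, -0.01 and 0.01 in mice 2, 3 and 4. Chromosome 3 had medians of 0.36, 0.32 and 0.58, chromosome 15 of 0.25, 0.26 and 0.33, and chromosome 19 of 0.31, 0.47 and 0.27, higher in the metastasis line of each mouse. Chromosome 4 had medians of -0.42, -0.33 and -0.50, and chromosome 10 of -0.36, -0.32 and -0.55, lower in each mouse. Of 726 genes tested on chromosome 10, 17.1% were higher in the metastasis line of mouse 4. Chromosome 7, with -0.32, -0.12 and -0.28, and chromosome 13, with -0.44, -0.11 and -0.07, were also lower in each mouse. Some other chromosomes differed in sign between mice, such as chromosome 8 with 0.15, -0.27 and 0.44. On chromosomes 4 and 10 together 35 of 1638 genes were called lower and 11 higher, and on chromosomes 3, 15 and 19 together 40 of 1965 were called higher and 13 lower, beside 0.981% of all genes called higher and 0.942% lower. Chromosomes were grouped after these medians were seen, and DNA copy number was not measured here.

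**Figure D5:**
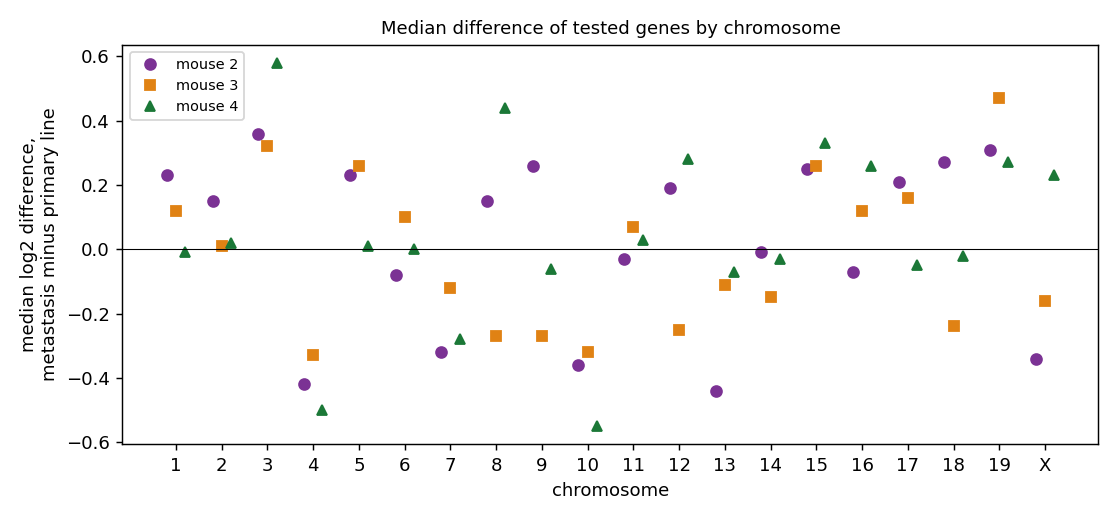
Median over tested genes of the log2 difference, metastasis line minus primary line of the same mouse, by chromosome, with 1 symbol per mouse. All 3 symbols lie above 0.25 on chromosomes 3 and 19 and below -0.3 on chromosomes 4 and 10.

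Whether these changes were larger in peritoneal lines than in metastasis lines from other sites was tested in a fit of all 16 lines. Mouse was a block, and mouse 6 gave the metastasis lines M28, M29 and M30 and the primary lines T69a and T69b. Mouse 5 gave the metastasis lines M15 and M16, so several lines shared 1 animal. M15 and M29 came from the diaphragm. In M15 the genes that collect ribosomal RNA reads held 72.7% of counts, the highest share among the 16 lines. Of 15573 genes tested, 0 passed by edgeR, which is 0.0%, with 1086 at an unadjusted p under 0.05 and a lowest adjusted p of 0.148. With the block but without mouse 5, which gave M15, 0 passed as well. With no mouse block 149 passed, which is 0.957%. Of the 296 genes above, 271 were in this fit, and 270 had the same sign at the other sites, among them 144 of 145 higher and 126 of 126 lower genes. Over all genes tested 73.8% had the same sign. Whether these shares of signs held without M15 was not tested. A shared sign does not mean a change of the same size. Of the 271 genes, 111 had an unadjusted p of the difference under 0.05, beside 1086 of all 15573. The 296 were picked for their change in the peritoneal lines, which favors such a difference. The primary lines of the other sites came from other mice, so the comparisons share no library.

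The genes with the lowest p of the difference were Mtus2, Prdm16, Ano1, Adgrl3 and Car9. Car9 had a log2 fold change of -2.27 at the other sites, a difference of -5.30 (unadjusted p = 9.16e-05, adjusted p = 0.285). Ano1 had -0.71 at the other sites, a difference of -1.59 (adjusted p = 0.285). Prdm16, a zinc finger factor, was at 2.22, 2.34 and 2.30 CPM in peritoneal metastasis lines and 15.1, 15.3 and 11 CPM in their primary lines, and had -0.37 at the other sites (adjusted p of the difference = 0.148). Eda2r and Ccng1 had log2 fold changes of -9.22 and -2.23 at the other sites. None of these differences passed, so no gene was shown to change more in the peritoneal lines.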

How the data were processed

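RNA of 16 organoid lines was measured, and the 6 lines compared here were grouped by the site, stage and mouse labels. The authors deposited a table per line with expected counts, which are RSEM's estimates per gene, and TPM, values scaled to a fixed total. Per the submitters' processing notes the tools were FastQC 0.11.8, STAR 2.6.0c and RSEM 1.3.1 on GRCm38.p6. RSEM shares reads among similar genes, so near-identical copies are uncertain. The isoform tables were not used here.

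Expected counts were rounded to whole numbers and tested with edgeR 4.0.16 in R 4.3.3 (TMM, filterByExpr by stage, quasi-likelihood F test, terms for mouse and stage). P-values were adjusted by Benjamini and Hochberg over all genes tested, with a threshold of 0.05, and "called" means below it. SEs were derived from the F statistic. The residual had 2 degrees of freedom, shared across genes by empirical Bayes. Genes are named by GENCODE M21, which matched 55394 of 55487 identifiers. Intervals (95%, exact binomial) and floors of 3 counts cover counting error only.

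Mouse was a block because the mouse labels tie each pair of lines to 1 animal. Deviations from group means correlated at -0.017, -0.0465 and -0.0401 between lines of the same mouse, so the pairing rests on the labels. Total counts per line ranged from 25737458 to 45363863.

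The text names the 12 highest and 12 lowest log2 fold changes among called genes with the same sign in all mice and at least 1 CPM in the higher group, the 8 further genes with the lowest p at 50 CPM or more, up to 4 members per list, a few model and sterol genes, and the 5 lowest p of the comparison with other sites. Some of these are not reported here. Others were chosen after their values were seen. The members, lists and tests were chosen with earlier results of these data known. Alternatives were no mouse block, RLE factors, other filters, robust and newer quasi-likelihood fits, limma 3.58.1, DESeq2 1.42.0, ribosomal RNA linked genes left out and each mouse left out. The scripts were tested on simulated data.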

Additional observations from a re-analysis of the deposited data

How the results depend on the processing

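With no mouse block (replicate block) 1333 genes were called, 727 higher and 606 lower, and the difference from other sites called 149. DESeq2 called 2324 (1191 higher, 1133 lower), limma-voom 673 (366 and 307), limma on log2(TPM + 1) 563 (283 and 280), edgeR with no filter on low counts 924 (496 and 428) and the newer quasi-likelihood fit 559 (300 and 259). Leaving out each mouse gave 0 to 142 calls, 0 to 63 higher and 0 to 79 lower, and 0 for the difference from other sites. The fit without mouse 2 had no call, and each such fit kept 1 residual degree of freedom. RLE factors, a stricter filter, the robust fit and ribosomal RNA linked genes left out kept the count within 1.5 times. The 53 called genes taken by the naming rule from this comparison were rerun under 15 alternatives, and none changed direction. The other called genes in the text were not followed across them. Of the 53, 0 passed in all 15 settings, since all were lost without mouse 2, and 15 passed in all but 1. The newer fit and the removal of 3 ribosomal RNA linked genes were chosen after seeing the data. With 3 pairs, small changes could not be told from spread.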

Other observations

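The following genes were chosen after their values were seen, from the 296 called genes, and get no test of their own as a group. Besides Foxj1, 6 called genes known from motile cilia were picked, all of them lower in metastasis lines. Kif27, a kinesin of cilia, was at 0.0774, 0.107 and 0.0484 CPM in metastasis lines of mice 2, 3 and 4 and 7.08, 8.54 and 2.73 CPM in primary lines (log2 fold change -6.19, SE 0.45, adjusted p = 0.0185). Nme5, Lrriq1, Ppil6, Wdr78 and Kif6 were called lower as well, all at low levels, with at most 5.97 CPM in any line.

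Some called genes known from blood cells were higher in metastasis lines, and they were picked for that. Arhgap45, known from blood cells, was at 23.8, 22.9 and 53.6 CPM, against 0.898, 0.435 and 1.27 CPM (log2 fold change 5.29, SE 0.31, adjusted p = 0.0119). Mrc1, the macrophage mannose receptor, was at 10.5, 33.7 and 14.8 CPM, against 0.549, 0.246 and 0.557 CPM, and the stem cell antigen gene Cd34 at 0.232, 5.97 and 86.0 CPM, against 0.0499, 0.189 and 0.557 CPM. The groups overlapped for Cd34, which rested mostly on the metastasis line of mouse 4. Of 7 immune markers, Adgre1 and Lyz2 were at 0 in all 6 lines, and Ptprc, which all white blood cells carry, was at 0.851, 0.400 and 0.556 CPM in metastasis lines and 0, 0.0189 and 0.0384 CPM in primary lines (adjusted p = 0.0571). Csf1r, a receptor of macrophages, lay the other way, at 0.118, 0.107 and 0.0863 CPM, against 0.299, 0.572 and 0.543 CPM, with too few counts to be tested. Of the 7 markers 2 were tested and 0 called by edgeR. The summed level of these markers was 2.13 to 4.69 CPM in metastasis lines and 1.60 to 1.70 CPM in primary lines. Their part in these results was not tested.

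Called genes known from detoxification included lower and higher ones. Nfe2l2, which encodes the oxidative stress factor Nrf2, was at 99.6, 111 and 192 CPM in metastasis lines and 376, 368 and 394 CPM in primary lines (log2 fold change -1.56, SE 0.22, adjusted p = 0.0492). Gstm2, a glutathione transferase, was at 1.78, 1.84 and 2.88 CPM, against 105, 75.1 and 48.2 CPM (log2 fold change -5.09, SE 0.44, adjusted p = 0.0247). Gstt2, Sult1a1, Ugt2b34, Ugt2b35 and Akr1b10 were called lower too. Among the carboxylesterases, Ces2e and Ces2g were called lower, with log2 fold changes of -4.03 and -2.38, whereas Ces2c was called higher. Mgst2, a microsomal transferase, was called higher as well. Ugt2b and Ces2 genes have close copies, and their values are uncertain.

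In some families of secreted factors and proteoglycans, 1 called member was higher and another lower. The pairs given here were picked for that, and the families as a whole were not tested. Tgfb1 was at 3.12, 4.96 and 8.15 CPM in metastasis lines and 0.549, 0.832 and 0.999 CPM in primary lines (log2 fold change 2.71, SE 0.37, adjusted p = 0.0444), while Tgfb3 was at 15.1, 5.91 and 5.49 CPM, against 63.3, 78.2 and 76.6 CPM (log2 fold change -3.21, SE 0.42, adjusted p = 0.0444). Bmp2 was called higher and Bmp7 lower, and likewise the proteoglycan gene Gpc1 higher and Gpc3 lower. Outside these families, Capg, an actin capping protein, was at 142, 318 and 314 CPM, against 8.18, 7.05 and 25.2 CPM (log2 fold change 4.40, SE 0.44, adjusted p = 0.0327).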
